A study of Ovis aries with 12 samples.

Results

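Chemokines and interleukins are secreted proteins through which leukocytes and tissue cells signal to each other. Chemokines of the CXC and CC families attract leukocytes by way of G protein-coupled receptors, while interleukins such as IL-1 beta, IL-6, IL-18 and IL-33 start or shape inflammation. In the corpus luteum, the progesterone-secreting gland left in the ovary after ovulation, immune cells enter in numbers when the gland regresses at the end of a cycle without pregnancy (luteolysis), and CCL2, the monocyte attractant, is a well-known product of the regressing gland in several species. The genes described here are the chemokines CXCL8, CCL2, CCL5, CCL8 and CXCL12, the interleukins IL1B, IL6, IL18 and IL33, and IL1RN, which encodes the natural antagonist of the IL-1 receptor. They were chosen by name, with earlier results of these data known. Every probe set that the array annotation assigns to one of these symbols alone was taken. This gave 14 probe sets of 10 genes, among 24016 probe sets tested and 9155 different symbols. CCL2 and IL1B had 2 probe sets each, IL33 had 3, and the other 7 genes had 1.

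Expression was measured with bovine Affymetrix arrays in the corpora lutea of 12 ewes, with 1 array per ewe. Ewes were pregnant or non-pregnant at day 14, or pregnant or non-pregnant at day 12, which makes 4 groups of 3 ewes. Pregnant ewes had been bred to a fertile ram, whereas non-pregnant ewes were unbred and heat was checked with a vasectomized ram, per the labels' protocols; breed and age are not given in the sources used here. By its title, the study is about genes of pregnancy and mechanisms that keep the gland from luteolysis.

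Groups were taken from the source label, because every title reads day 12 pregnant and so goes against the source label in 9 samples. The description labels call 4 of the arrays a gene array and 8 a genome array, in ways that cut across the groups. On day 14 the gene array label was on 1 array of pregnant and 2 of non-pregnant ewes, and on day 12 on 1 of pregnant and 0 of non-pregnant ewes. A day 14 difference within 1 label therefore set 1 array against 2 and is given without a spread. Among genome-labelled arrays of non-pregnant ewes, 1 array of day 14 was set against 3 of day 12. On the first principal component all 3 arrays of day 14 non-pregnant ewes scored 18.1 to 40.4, while the scores of the remaining 9 ran from -13.0 to -7.00. The labelled tissue was borne out by luteal steroidogenic markers, all 9 of which were measured and none dim. Their mean level on day 14 was 10.94 to 11.10 in pregnant and 10.39 to 10.89 in non-pregnant ewes, and on day 12 it was 10.95 to 11.11 over both groups (log2). In whole glands, fewer cells of a type and less RNA per cell cannot be told apart.

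All values are log2 expression values and all differences are log2 differences ± standard error from a limma model fitted over the whole array, with p-values adjusted by the Benjamini-Hochberg method over the 24016 probe sets and a threshold of 0.05. Levels were not compared between genes, since probes differ in brightness and bovine probes may match sheep transcripts unequally well.

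Signal over background limited several of the genes. RMA gives no detection calls, so probe sets were marked dim where their mean over the 12 arrays lay under 3.59, the 25th percentile of all probe sets. Only 2 member probe sets, both of IL33, lay there, with means of 2.11 and 2.88. Just above the line lay the only CXCL8 probe set (3.72), the dimmer CCL2 probe set (3.95), the only IL6 probe set (4.04) and the dimmer IL1B probe set (4.11), all 4 of them under 4.15, a second line below which 1 in 3 probe sets lies. Another 2 lay between this and the median of 5.22, namely the brightest IL33 probe set (4.72) and IL1RN (5.02). The remaining 6 probe sets, for IL1B (5.34), CCL2 (5.48), CCL8 (5.48), CXCL12 (5.61), CCL5 (6.17) and IL18 (6.45), lay above the median.

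**Figure D1:**
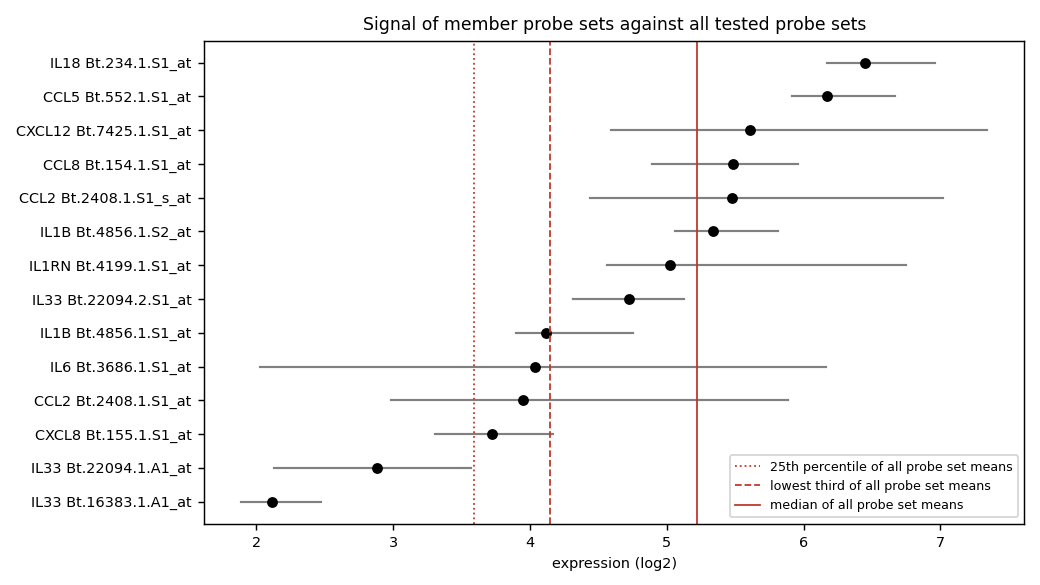
Signal of the 14 chemokine and interleukin probe sets. Points are means over 12 arrays and bars run from the lowest to the highest array (log2); vertical lines mark the 25th percentile (3.59), the level under which 1 in 3 lie (4.15) and the median (5.22) of the means of all 24016 probe sets. IL6 spans the widest range, with values from 2.03 to 6.16.

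On day 14, CXCL8 was lower in pregnant than in non-pregnant ewes by 0.59 ± 0.12 (1.51-fold), and it alone among the member genes passed the threshold. CCL2 and IL1RN had values that were lower in all pregnant than in all non-pregnant ewes, and IL6 had values that were higher in all pregnant than in all non-pregnant ewes, but none of these differences passed. CCL5, CCL8, CXCL12, IL1B, IL18 and the brightest IL33 probe set overlapped between the groups. Of the 14 probe sets 1 passed, against 1.45% of all probe sets tested, and 7 had groups that did not overlap, against 18.3% of all. Of the 7, 2 were higher in pregnant ewes, against 11.1% of all, and 5 were lower, against 7.15% of all. The 7 include both CCL2 probe sets and the 2 dim IL33 probe sets, and these IL33 probe sets went in opposite directions. Because the members were chosen with earlier results of these data known, such counts do not test the family against all probe sets. An unadjusted p under 0.05 was found for 5 of the 14, against 15.4% of all. The median difference over the 10 genes was -0.12, with 5 above and 5 below 0, and the median over all probe sets was 0.029. Ignoring direction, the median size of the difference was 0.44 for the 10 genes and 0.13 for all probe sets. The first is of brightest probe sets only, while the second includes dim ones. IL6, CXCL12, CCL2 and IL1RN also had within-group SDs above those of 97% of all probe sets. The 2 medians therefore do not compare the strength of a response.

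CXCL8 encodes interleukin 8, which attracts and activates neutrophils. In day 14 pregnant ewes it was at 3.44, 3.58 and 3.50, against 4.04, 4.01 and 4.17 in day 14 non-pregnant ewes. It was at 3.55, 3.59 and 3.31 in day 12 pregnant ewes and at 3.90, 3.59 and 3.998 in day 12 non-pregnant ewes. The day 14 groups did not overlap, while the day 12 groups overlapped at 3.59, a value reached by 1 pregnant and 1 non-pregnant ewe. The day 14 difference between pregnant and non-pregnant ewes was -0.59 ± 0.12 (limma adjusted p = 0.0428), and it was -0.59 among gene-labelled and -0.53 among genome-labelled arrays. On day 12 it was -0.32 ± 0.12 (limma adjusted p = 0.595), and the test of whether the pregnancy difference itself differed between the days gave -0.27 ± 0.18 (limma adjusted p = 0.681). All 3 day 14 pregnant values lay under the dim line of 3.59, so the size of the difference is uncertain. The call was narrow. CXCL8 ranked 310 of 348 probe sets that passed, and it passed in 1 of 12 fits that left out 1 array each, the exception being the one without day 12 non-pregnant replicate 2 (adjusted p = 0.0321). Over the other 11 the adjusted p was 0.0516 to 0.146, and the difference stayed between -0.67 and -0.53. Of a list of neutrophil and eosinophil markers, 5 of 10 were measured and 1 (ELANE) was dim. Its eosinophil genes EPX, PRG3 and IL5RA were not measured. The measured markers averaged 4.53 to 4.59 in day 14 pregnant and 4.56 to 4.86 in day 14 non-pregnant ewes. Their part in the result was not tested.

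CCL2, which attracts monocytes, was represented by a brighter and a dimmer probe set. By the brighter one it was at 5.23, 5.35 and 5.09 in day 14 pregnant ewes, against 5.93, 6.05 and 7.02 in day 14 non-pregnant ewes. Day 12 pregnant ewes had 5.59, 5.35 and 5.26, against 4.81, 4.44 and 5.62 in day 12 non-pregnant ewes. The day 14 non-pregnant group lay above all other arrays, with replicate 3 highest, and both pregnant groups were tightly grouped around their means. The day 14 difference between pregnant and non-pregnant ewes was -1.09 ± 0.32 (2.12-fold lower, limma adjusted p = 0.129), with -1.44 among gene-labelled and -0.64 among genome-labelled arrays. The dimmer probe set gave -1.51 ± 0.38 (limma adjusted p = 0.0793), from 3.79, 3.73 and 3.25 in pregnant and 4.62, 4.65 and 5.89 in non-pregnant ewes, again without overlap. Without day 14 non-pregnant replicate 3 the difference of the brighter probe set was -0.78 (limma adjusted p = 0.191).

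IL1RN, the IL-1 receptor antagonist, was at 4.74, 4.91 and 4.93 in day 14 pregnant ewes, against 5.12, 6.75 and 5.50 in day 14 non-pregnant ewes. It was at 4.73, 4.66 and 4.77 in day 12 pregnant ewes, against 4.81, 4.56 and 4.77 in day 12 non-pregnant ewes. Every day 14 non-pregnant array lay above the other 9, but by unequal amounts, with replicate 2 far above its group. The difference between pregnant and non-pregnant ewes on day 14 was -0.79 ± 0.29 (limma adjusted p = 0.207), with -1.19 among gene-labelled and -0.29 among genome-labelled arrays. Without day 14 non-pregnant replicate 2 it was -0.42 (limma adjusted p = 0.107), and without replicate 1 of that group it was -1.20 (limma adjusted p = 0.106).

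IL6, a cytokine of the acute phase and of B and T cell responses, ran the other way. It was at 4.35, 5.64 and 2.79 in day 14 pregnant ewes, against 2.03, 2.16 and 2.17 in day 14 non-pregnant ewes. The values were 6.16, 4.53 and 3.98 in day 12 pregnant ewes, against 5.21, 4.42 and 5.03 in day 12 non-pregnant ewes. The 3 day 14 non-pregnant values lay between the 1.22th and 2.61th percentile of their arrays, at the bottom of the signal range, whereas the other 9 arrays spread from the 12.6th to the 63.8th percentile. The difference between pregnant and non-pregnant ewes on day 14 was 1.76 ± 0.53 (limma adjusted p = 0.138), with 0.62 among gene-labelled and 2.97 among genome-labelled arrays. With no label term the difference was 2.14. Its size is uncertain, since all 3 non-pregnant values lay under the dim line. Day 14 pregnant replicate 3 (2.79) lay under that line too, so the separation of the groups rests in part on values under it. The difference was 0.90 without day 14 non-pregnant replicate 1 and 2.47 without day 14 pregnant replicate 3. The additive term for the array label was -1.15 for IL6 (gene minus genome array, limma adjusted p = 0.693), larger in size than that of any other member probe set. In day 14 non-pregnant ewes, however, the gene-labelled arrays (2.16 and 2.17) did not lie below the genome-labelled one (2.03). The additive term therefore does not describe that group. The within-group SD of IL6 was 0.94, above that of 99.8% of all probe sets, whose median was 0.15. It was 1.43 in day 14 pregnant, 0.080 in day 14 non-pregnant, 1.14 in day 12 pregnant and 0.41 in day 12 non-pregnant ewes (n = 3 each). The model pools these unequal spreads.

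**Figure D2:**
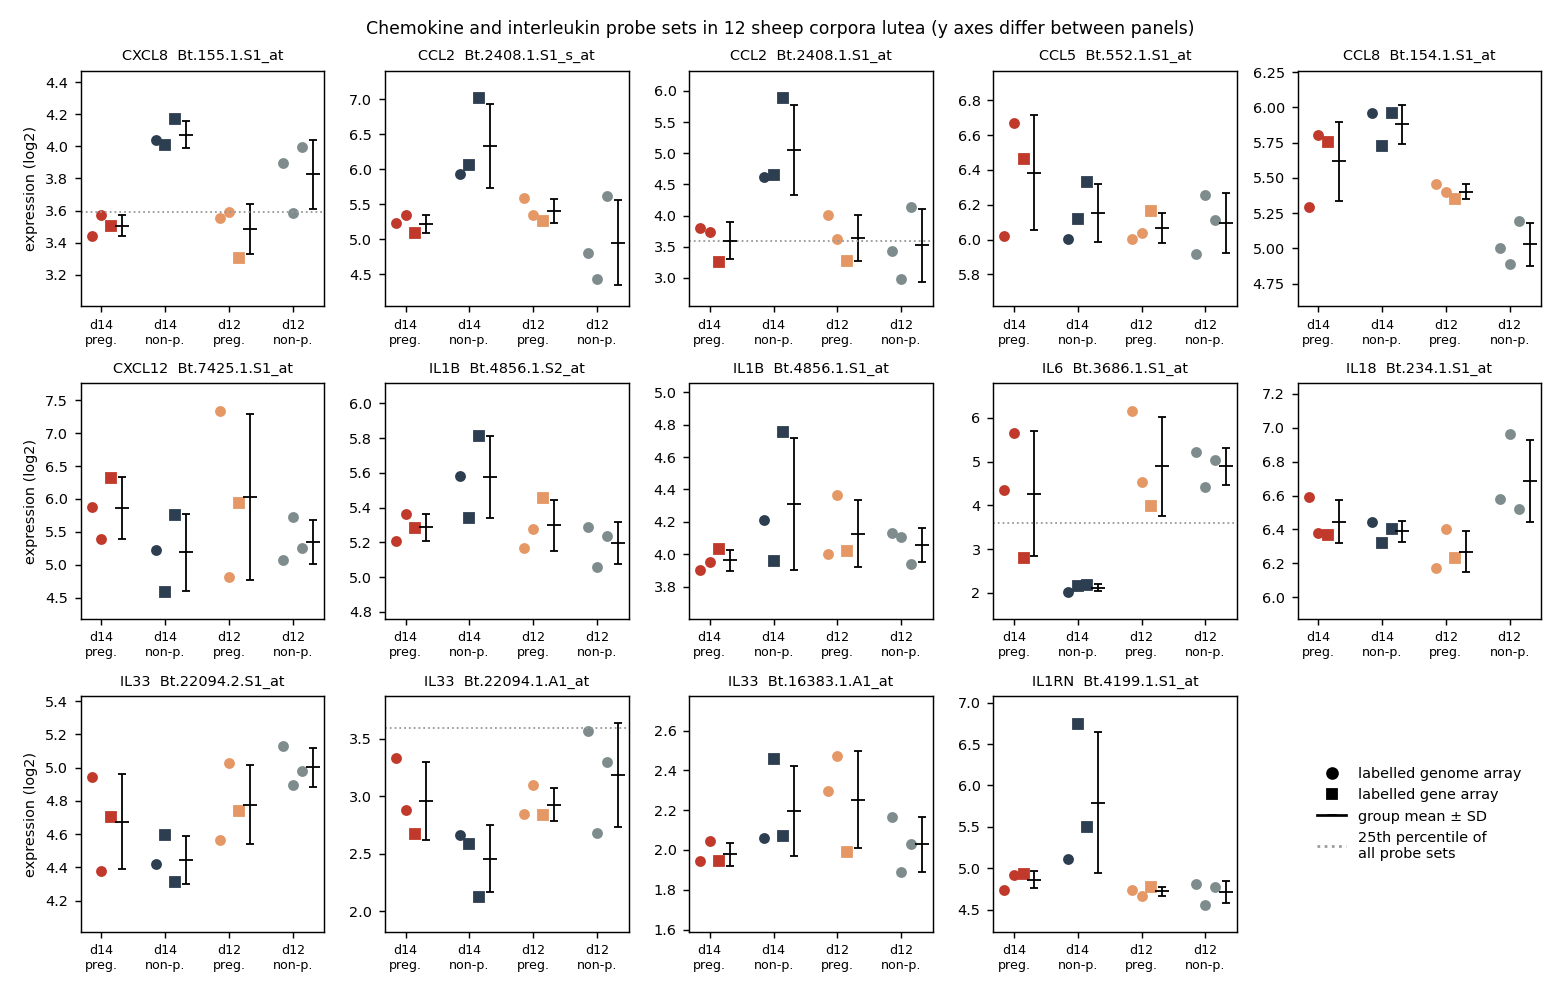
Log2 expression of each of the 14 probe sets in the 12 corpora lutea. Each point is 1 array (circles labelled genome array, squares labelled gene array), with the group mean ± SD beside it (n = 3); the dotted line is the 25th percentile of all probe sets (3.59), shown where it falls in the range, and y axes differ. The 3 day 14 non-pregnant values of IL6 lie at 2.03 to 2.17, and those of CCL2 by its brighter probe set at 5.93 to 7.02.

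Day 14 and day 12 were then compared in non-pregnant ewes. Here 10 of the 14 probe sets had groups that did not overlap, against 19.8% of all probe sets, with 6 higher on day 14, against 7.67% of all, and 4 lower, against 12.1% of all. None of the 14 passed the threshold in limma, against 0.391% of all. An unadjusted p under 0.05 was found for 7 of the 14, against 11.7% of all. These counts, too, are of members chosen with earlier results of these data known. The 6 without overlap and with higher values were both CCL2 probe sets, CCL8, CXCL8, IL1RN and the brightest IL1B probe set, and the 4 lower ones were IL6, IL18 and both brighter IL33 probe sets. The median over the 10 genes was 0.12, beside -0.026 over all probe sets. Both this comparison and the day 14 comparison use the 3 day 14 non-pregnant arrays, so their opposite signs for a gene rest in part on the same measurements.

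CCL8, a CC chemokine related to CCL2, came nearest to the threshold. Day 14 non-pregnant ewes had 5.96, 5.72 and 5.96, against 4.9997, 4.89 and 5.19 in day 12 non-pregnant ewes. Day 14 pregnant ewes had 5.30, 5.80 and 5.75, against 5.46, 5.40 and 5.35 in day 12 pregnant ewes. All day 12 non-pregnant values lay below those of the other 3 groups. Between day 14 and day 12 in non-pregnant ewes the difference was 0.85 ± 0.16 (1.80-fold, limma adjusted p = 0.0549), and among genome-labelled arrays it was 0.93. CCL8 ranked 105 of all probe sets by p in this comparison, in which 94 passed. It passed in 7 of 23 alternative fits, with adjusted p-values from 0.00899 to 0.251 over all of them, and the difference stayed between 0.75 and 0.93. On day 12 it was higher in every pregnant than in every non-pregnant ewe, by 0.37 ± 0.15 (limma adjusted p = 0.594).

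CCL2 differed between day 14 and day 12 in non-pregnant ewes by 1.34 ± 0.36 by its brighter and 1.62 ± 0.42 by its dimmer probe set (limma adjusted p = 0.153 and 0.144). Among genome-labelled arrays these were 0.97 and 1.10. With no term for the array label, the brighter one was at 1.38 (limma adjusted p = 0.0389). IL6 differed by -2.01 ± 0.59 (limma adjusted p = 0.197), with -2.86 among genome-labelled arrays and -2.77 with no label term (limma adjusted p = 0.0455). It was -0.94 without day 14 non-pregnant replicate 1 (limma adjusted p = 0.626), and its size is uncertain because the day 14 values lay at the bottom of the signal range. IL1RN was at 0.81 ± 0.32 (limma adjusted p = 0.348), with 0.40 among genome-labelled arrays. It was 0.51 without day 14 non-pregnant replicate 2 and 1.32 without replicate 1 of that group. CXCL8 was at 0.30 ± 0.14 and IL18 at -0.24 ± 0.14 (limma adjusted p = 0.442 and 0.559), both without overlap. The gene array label was on 2 of the 3 day 14 and on 0 of the 3 day 12 non-pregnant arrays.

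IL33, an alarmin of the IL-1 family that is released from damaged cells, was at 4.42, 4.60 and 4.31 in day 14 non-pregnant ewes by its brightest probe set, against 5.13, 4.90 and 4.98 in day 12 non-pregnant ewes. Day 14 pregnant ewes had 4.94, 4.38 and 4.70, and day 12 pregnant ewes had 4.56, 5.03 and 4.74. The day 14 minus day 12 difference in non-pregnant ewes was -0.56 ± 0.18 (limma adjusted p = 0.246), and -0.58 among genome-labelled arrays. These 2 non-pregnant groups did not overlap, while both pregnant groups overlapped with each other. The second probe set gave -0.53 ± 0.25 at a dim mean of 2.88, while the dimmest gave 0.22 ± 0.16, so the 3 probe sets of IL33 disagreed in sign. On day 14 these 2 dim probe sets also split, at 0.40 ± 0.22 and -0.24 ± 0.15 between pregnant and non-pregnant ewes, each without overlap and with limma adjusted p = 0.416 and 0.470. The dimmest had values of 1.89 to 2.47 in all 12 arrays, near the lowest value of any probe set tested (1.47).

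IL1B, which encodes IL-1 beta, the fever-inducing cytokine that IL1RN opposes, was at 5.58, 5.34 and 5.81 in day 14 non-pregnant ewes by its brightest probe set, against 5.29, 5.06 and 5.24 in day 12 non-pregnant ewes. Day 14 pregnant ewes had 5.21, 5.37 and 5.29, and day 12 pregnant ewes had 5.17, 5.28 and 5.46. All day 14 non-pregnant values lay above those of day 12 non-pregnant ewes and overlapped with those of day 14 pregnant ewes. The day 14 minus day 12 difference in non-pregnant ewes was 0.33 ± 0.15 (limma adjusted p = 0.413), and the difference between pregnant and non-pregnant ewes on day 14 was -0.27 ± 0.13 (limma adjusted p = 0.367). The dimmer probe set had the same signs, at 0.23 ± 0.21 and -0.34 ± 0.19, with groups that overlapped in both comparisons.

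Leukocyte markers were measured in the same comparison. The general leukocyte list held PTPRC, CD53, CORO1A, LAPTM5 and ITGB2, all 5 measured and none dim. It had 5 of 5 above 0 between day 14 and day 12 in non-pregnant ewes, but none passed. The median was 0.46, beside -0.026 over all probe sets. Between the days in pregnant ewes the list also had 5 of 5 above 0, with a median of 0.32, beside -0.0049 over all probe sets. The list's mean level was 6.57 to 7.24 in day 14 non-pregnant and 6.22 to 6.62 in day 12 non-pregnant ewes. In pregnant ewes it was 6.37 to 7.10 on day 14 and 6.30 to 6.55 on day 12. The 6.57 was that of the only genome-labelled day 14 non-pregnant array, and it lay within the day 12 non-pregnant range. Macrophage markers, 8 of 10 measured with ITGAM dim, lay at 6.15 to 6.94 in day 14 non-pregnant, against 6.20 to 6.56 in day 12 non-pregnant ewes. The 6.15 was that of the same genome-labelled array. Between these groups 5 of the macrophage markers lay above and 3 below 0. T and NK cell markers, 15 of 16 measured with KLRK1 dim, lay at 4.91 to 5.03 in day 14 non-pregnant, against 4.88 to 4.98 in day 12 non-pregnant ewes. Of these, 8 lay above and 7 below 0. Of the B cell list 3 of 6 were measured, with MS4A1 and CD79A dim. The part of leukocyte number in the chemokine values was not tested.

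The difference of 3′ minus 5′ control probe sets of actin and GAPDH was 1.44 to 1.60 in day 14 pregnant and 1.29 to 1.43 in day 14 non-pregnant ewes. It was 1.57 to 1.60 in day 12 pregnant and 1.42 to 1.47 in day 12 non-pregnant ewes. On both days it was higher in all pregnant than in all non-pregnant ewes. Whether it reflects RNA quality after labelling with the GeneChip WT kit was not tested, nor was its part in the results.

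**Figure D3:**
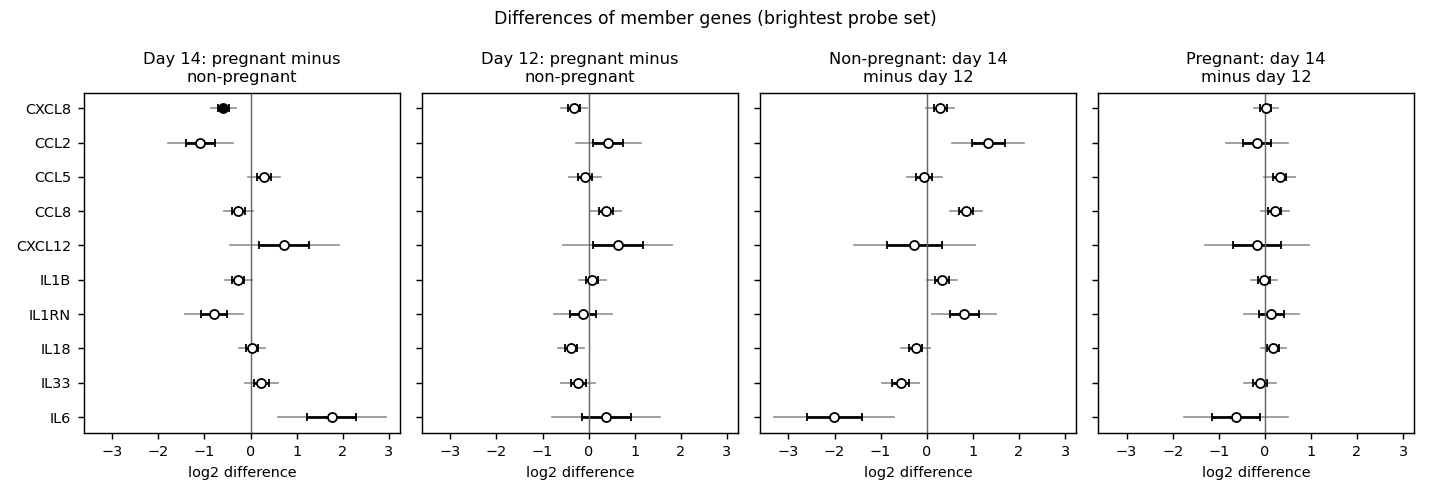
Log2 differences of the 10 genes by their brightest probe set in 4 comparisons of a pair of groups. Points show the fitted difference, thick bars its standard error and thin lines its 95% interval; the filled point marks the one that passed the threshold over 24016 probe sets. CXCL8 on day 14 is the filled point (-0.59), and CCL2 (1.34) and IL6 (-2.01) lie farthest from 0 between the days in non-pregnant ewes.

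Between pregnant and non-pregnant ewes on day 12, 2 of the 14 probe sets had groups that did not overlap, against 16.4% of all, and none passed in limma, where 0 of all probe sets passed (0%). An unadjusted p under 0.05 was found for 3 of the 14, against 7.69% of all. The 2 were CCL8, given above, and IL18. IL18, an interferon-gamma-inducing cytokine that is cleaved by caspase 1, was at 6.17, 6.40 and 6.23 in day 12 pregnant ewes, against 6.58, 6.96 and 6.52 in day 12 non-pregnant ewes. The difference was -0.39 ± 0.13 (limma adjusted p = 0.545), and -0.40 among genome-labelled arrays. On day 14 it was at 6.59, 6.38 and 6.37 in pregnant ewes, against 6.44, 6.32 and 6.40 in non-pregnant ewes, where the groups overlapped and the difference was 0.030 ± 0.13 with a 95% interval of -0.25 to 0.31.

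Between day 14 and day 12 in pregnant ewes, 0 of the 14 probe sets had groups that did not overlap, against 9.9% of all. None passed in limma, where 0 of all probe sets passed (0%), and 0 of the 14 had an unadjusted p under 0.05, against 4.43% of all. The largest difference among the 10 genes was that of IL6, at -0.63 ± 0.51 with a 95% interval of -1.75 to 0.50. CXCL8 (0.023, interval -0.24 to 0.29) and IL1B (-0.014, interval -0.29 to 0.27) lay closest to 0. The members' median size of difference was 0.17, beside 0.088 for all probe sets, with the limits given for day 14.

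The test of whether the pregnancy difference itself differed between the days was passed by none of the 14 probe sets in limma, and by 0.0874% of all. An unadjusted p under 0.05 was found for 5 of the 14, against 9.42% of all. The 5 were both CCL2 probe sets (-1.51 ± 0.47 and -1.67 ± 0.55, adjusted p = 0.342 and 0.375), CCL8 (-0.64 ± 0.21, adjusted p = 0.378), IL18 (0.42 ± 0.19, adjusted p = 0.527) and the dimmest IL33 probe set (-0.50 ± 0.22, adjusted p = 0.507). CCL2 thus had a pregnancy difference of -1.09 on day 14 and 0.42 on day 12, and CCL8 one of -0.26 and 0.37, without a difference between the days that passed. The day 12 difference of CCL2 was 0.16 without non-pregnant replicate 2 and 0.76 without non-pregnant replicate 3, and the day 14 difference of CCL8 was -0.12 without pregnant replicate 1 and -0.40 without pregnant replicate 3.

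CCL5 and CXCL12 showed no separation of any groups compared. CCL5, or RANTES, which attracts T cells and eosinophils, was at 6.02, 6.67 and 6.46 in day 14 pregnant and 6.001, 6.12 and 6.33 in day 14 non-pregnant ewes. It was at 6.001, 6.04 and 6.17 in day 12 pregnant and 5.92, 6.26 and 6.11 in day 12 non-pregnant ewes. Its difference on day 14 was 0.29 ± 0.16 (limma adjusted p = 0.411, 95% interval -0.055 to 0.63), and it was 0.13 without day 14 pregnant replicate 2 and 0.43 without day 14 pregnant replicate 1. CXCL12, a stromal chemokine that holds and recruits cells through the receptor CXCR4, was at 5.88, 5.39 and 6.32 in day 14 pregnant and 5.22, 4.59 and 5.76 in day 14 non-pregnant ewes. Its day 12 values were 7.34, 4.82 and 5.94 in pregnant and 5.07, 5.72 and 5.25 in non-pregnant ewes. The spread within groups was wide, with an SD of 0.75 pooled over the groups, above that of 99.6% of all probe sets, and the highest and lowest day 12 pregnant ewes differed by more than any pair of group means. The difference on day 14 was 0.73 ± 0.54 (limma adjusted p = 0.563), with a 95% interval of -0.45 to 1.91 that includes a change of more than 1 in log2 units. Without day 12 pregnant replicate 1, which held the highest value, the day 12 difference was -0.24, against 0.63 with it.

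The groups ranked differently for the different genes. Day 14 non-pregnant ewes had the highest mean for CXCL8, CCL2, CCL8, IL1B and IL1RN, and the lowest for IL6, IL33 by its brightest probe set and CXCL12. For CXCL8 the order was day 14 non-pregnant (4.07 ± 0.086), day 12 non-pregnant (3.83 ± 0.21), day 14 pregnant (3.51 ± 0.066) and day 12 pregnant (3.48 ± 0.15, SD, n = 3 each), where the last pair overlapped. For CCL2 by its brighter probe set day 14 non-pregnant ewes came highest (6.33 ± 0.60). Below them came pregnant ewes of day 12 (5.40 ± 0.17), pregnant ewes of day 14 (5.22 ± 0.13) and then non-pregnant ewes of day 12 (4.95 ± 0.60), with overlap between all neighbours below the first. For IL6 the first 3 groups, day 12 pregnant (4.89 ± 1.14), day 12 non-pregnant (4.89 ± 0.41) and day 14 pregnant (4.26 ± 1.43), overlapped with their neighbours, and day 14 non-pregnant (2.12 ± 0.080) lay below them.

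**Figure D4:**
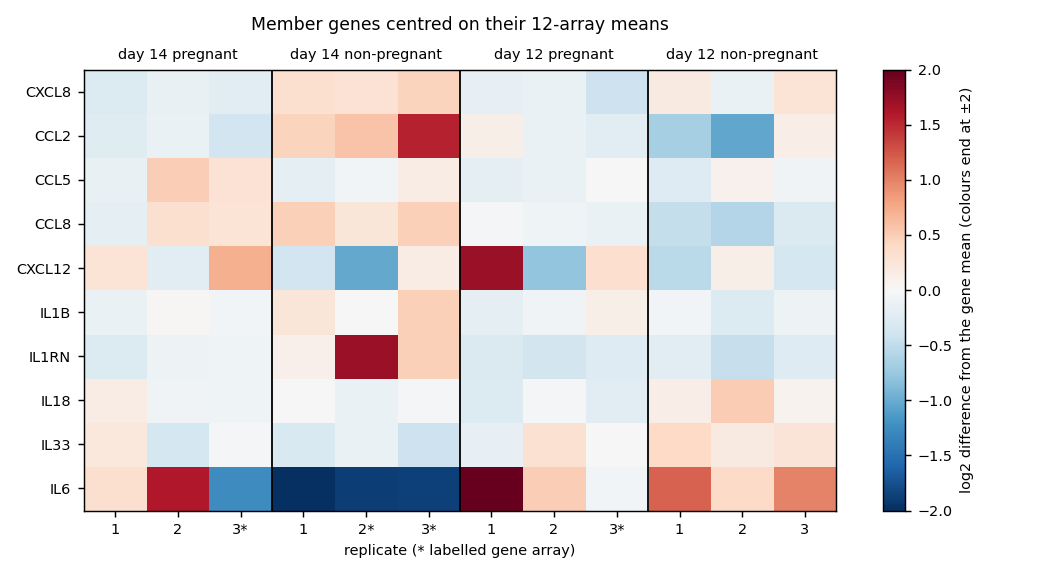
The 10 genes by their brightest probe set in 12 corpora lutea, each centred on its own mean over the arrays. Colours give the log2 difference from that mean and end at ±2; columns are arrays, grouped, and an asterisk marks those labelled gene array. CCL2, CCL8 and CXCL8 lie above their means and IL6 below its mean in all 3 day 14 non-pregnant arrays, while CXCL12 varies within every group.

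The genes nearest to each member in pattern were sought among 8018 named genes that were not dim, by the root mean square difference of centred values over the 12 arrays. For CXCL8 these were CDC37L1, DYNC1LI2 and UBE2D3, at 0.13 to 0.14 log2 units. For CCL2 they were HSD17B11, SLC2A1 and PDP1 (0.30 to 0.35), and for CCL8 they were DPP4, NCF1 and CD52 (all 0.19). IL1RN was nearest to PMEPA1, ACTC1 and ITGAV (0.19 to 0.22) and CCL5 to RAC2, USP19 and STAT2 (0.12 to 0.13). The nearest genes were CRBN, MUS81 and RHOB for IL1B (0.089 to 0.097), RAB11FIP2, WDR41 and POT1 for IL18 (0.086 to 0.11) and VPS45, TMEM260 and ABITRAM for IL33 (0.14 to 0.16). For CXCL12 they were EIF4EBP1, ABCA7 and ID2 (0.41 to 0.48), and for IL6 they were PCLAF, TM4SF18 and AVPR1A (0.91 to 0.97). This measure grows with a gene's own range, so its values are not comparable between members. No limit was set for calling a pattern shared, and the nearest gene need not be close. For IL6 the differences were about the size of its within-group SD (0.94). CXCL12 ranged over 2.75 and IL6 over 4.14 log2 units across the arrays, while IL1B, IL18 and CCL5 ranged over only 0.75 to 0.79.

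In the wider chemokine and interleukin system, 5 lists held 129 genes, of which 81 were measured. Of these, 1 gene passed in the day 14 comparison in limma, against 1.45% of all probe sets, and 0 in the other 3 comparisons of a pair of groups and in the test between the days. That gene was IL1RAP, the accessory chain that the IL-1 and IL-33 receptors need to signal. It was at 4.46, 4.75 and 4.29 in day 14 pregnant ewes, against 5.48, 5.14 and 5.39 in day 14 non-pregnant ewes, and at 4.27 to 4.61 in day 12 pregnant and 4.48 to 4.81 in day 12 non-pregnant ewes. The day 14 non-pregnant group lay above all other arrays, and on day 14 IL1RAP was lower in pregnant ewes by 0.87 ± 0.15 (log2 difference -0.87, limma adjusted p = 0.0204). Leaving out 1 array ended this call in 3 of 12 fits, where the arrays were day 14 pregnant replicates 1 (limma adjusted p = 0.0609) and 3 (0.147) and day 14 non-pregnant replicate 1 (0.0833). In all it was lost in 7 of 22 alternatives, the other 4 being only the groups compared (0.0817), array weights (0.0703), the fit without both gene-labelled day 14 non-pregnant arrays (0.0810) and genome-labelled arrays alone (0.0836). An unadjusted p under 0.05 was found for 9 of the 81 on day 14 (against 15.4% of all probe sets), 8 between the days in non-pregnant ewes (11.7%), 4 on day 12 (7.69%), 3 between the days in pregnant ewes (4.43%) and 6 in the test between the days (9.42%). None of these counts stood above the share over all probe sets.

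By role, 22 of 34 other chemokines were measured, 8 of them dim, with a median day 14 difference of 0.098 and none past the threshold. Of 23 chemokine receptors 12 were measured, with a median of 0.043. Among them CXCR1, a receptor of CXCL8, was at -0.10 ± 0.12, and the CXCL12 receptors CXCR4 and ACKR3 were at -0.94 ± 0.39 and 0.26 ± 0.25 (limma adjusted p = 0.742, 0.275 and 0.676); these 3 were named after their values were seen. The other interleukins and related cytokines had 22 of 35 measured, 9 of them dim, with a median of -0.017. The receptors and decoys of IL-1, IL-18, IL-33 and IL-6 had 6 of 11 measured, of which IL1RAP passed and the other 5 lay between -0.11 and 0.37. Interleukin processing and NF-kB signalling, which matures IL-1 beta and IL-18 and switches on many chemokine genes, had 19 of 26 measured with a median of 0.023, beside 0.029 over all probe sets. Its members CASP1 (0.12 ± 0.16) and NFKBIA (0.23 ± 0.17), also named after their values were seen, did not pass. Of the marker lists for tissue cells, CD34 (1.09 ± 0.16) and TIE1 (0.48 ± 0.088) of 8 measured endothelial genes and STAR (0.74 ± 0.13) of 9 luteal genes were higher in pregnant ewes on day 14 (limma adjusted p = 0.00828, 0.0266 and 0.0245). Among all probe sets 1.45% passed on day 14. The endothelial list as a whole had 5 genes above and 3 below 0, with a median of 0.19, and the luteal list had 8 above and 1 below, with a median of 0.43. Leaving out 1 array ended the call in 5 of 12 fits for TIE1, 4 for STAR and 1 for CD34, and without both gene-labelled day 14 non-pregnant arrays STAR was at 0.40 (limma adjusted p = 0.191). CNN1, 1 of 7 smooth muscle and pericyte genes, was lower (-1.54 ± 0.15, limma adjusted p = 0.000974), but that list had 3 above and 4 below 0, with a median of -0.10, and none of 7 fibroblast genes passed. CNN1 also passed between the days in non-pregnant ewes (1.38, limma adjusted p = 0.00525), as did 0.391% of all probe sets. There its list again had 3 above and 4 below 0. In the test between the days, which 0.0874% of all probe sets passed, CNN1 was at -1.43 (limma adjusted p = 0.0456). That call was kept in only 2 of 12 fits that left out 1 array, while the CNN1 list had 4 above and 3 below 0 and a median of 0.31. The part of these cells in the chemokine and interleukin values was not tested.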

How the data were processed

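Corpora lutea of 12 ewes were snap frozen, and their RNA was biotin-labelled with a GeneChip WT kit, per the labels' protocols. The deposited values are log2 expression; the submitters' processing notes name RMA and Affymetrix Expression Console, without versions. RMA corrects background, equalises the arrays by quantiles and summarises the probes of each probe set. Array medians lay between 5.16 and 5.24, and no array duplicated another. The number of arrays limits the precision.

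After 112 control probe sets were left out, 24016 were tested. Symbols came from GEO's bovine platform annotation, which can be old: 13292 probe sets had 1 symbol, 86 had more and 10638 had none. Each group mean and an additive term for the array name in the description label were the terms of 1 limma fit (version 3.58.1, R 4.3.3) over the 12 arrays (7 residual and 4.39 prior degrees of freedom, two-sided). The label term passed for 0 probe sets in limma and had an unadjusted p under 0.05 for 1658. The fit was tested on simulated data with normal noise, equal spread in all groups, no label effect and no signal floor. That test therefore does not cover unequal spreads, a label effect or a floor in these data. Exact permutation of 3 against 3 arrays cannot give a p under 0.1 and was not used. Replicates are numbered in accession order and pair no samples; that they came from separate ewes is per the titles. A gene was represented by its brightest probe set. Every member probe set was named, and of each list the genes past the threshold, at most 4 for each comparison; for each member that was not dim, the 3 nearest genes in pattern. The members and lists were chosen with earlier results of these data known. Alternatives were other treatments of the label, fits of fewer arrays, filters on dim probe sets, median centring, array weights, another prior variance and the mean of a gene's probe sets.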

Additional observations from a re-analysis of the deposited data

How the results depend on the processing

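No paired analysis was possible because the replicate numbers follow the order of the samples and no label pairs ewes across groups. The CXCL8 difference on day 14 kept its sign in all 21 alternatives, at -0.67 to -0.49, but passed in 6 of them (limma adjusted p from 0.0310 to 0.251). Over all 1284 alternative values of the member genes and of the list genes named for passing, 31 turned in sign, none of which passed. Signal over background limits CXCL8, IL6 and the dimmer probe sets of CCL2, IL1B and IL33.

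The number of probe sets that passed on day 14, 348, was 531 with no term for the array label, 24 with only the groups compared, 141 with array weights, 174 without both gene-labelled day 14 non-pregnant arrays and 163 with genome-labelled arrays alone; without 1 array it was 88 to 510. On day 12 it was 1 with only the groups compared, against 0, and 0 to 5 without 1 array. Between the days in non-pregnant ewes, 94 became 415 with no label term, 462 with the label as a random block, 1 with only the groups compared, 159 without both gene-labelled day 14 non-pregnant arrays and 142 with genome-labelled arrays alone, and 28 to 254 without 1 array. In the test of the pregnancy difference between the days, 21 became 50 with no label term or a random block, 11 and 13 without probe sets under the median and under the second signal line, and 59 both without the gene-labelled day 14 non-pregnant arrays and with genome-labelled arrays alone; without 1 array it was 1 to 76. In pregnant ewes it was 0 throughout.

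Of the member probe sets, 1 passed on day 14 and 0 did with only the groups compared, with array weights, without both gene-labelled day 14 non-pregnant arrays and with genome-labelled arrays alone; it was also 0 under both stricter signal filters, which remove CXCL8 itself. Without 1 array it was 0 to 1. Between the days in non-pregnant ewes 0 became 4 with no label term or a random block, and 1 without probe sets under the median, with arrays centred on their medians and with a robust, trended prior variance; without 1 array it was 0 to 1. Beyond the removal of CXCL8 by those filters, why the counts changed was not tested. The second signal line, the fit without both gene-labelled day 14 non-pregnant arrays and the fit of genome-labelled arrays alone were chosen after seeing the data.

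The sign turned for some differences, none of which passed. Leaving out 1 array at a time gave, between the days in pregnant ewes, ranges of -0.072 to 0.071 for CXCL8, -0.80 to 0.57 for CXCL12, -0.072 to 0.066 for IL1B, -0.25 to 0.058 for IL33 and -0.020 to 0.29 for IL1RN. Between the days in non-pregnant ewes it gave -0.14 to 0.027 for CCL5. On day 12 it gave -0.24 to 1.37 for CXCL12 and -0.18 to 0.86 for IL6, and on day 14 it gave -0.023 to 0.074 for IL18. In the test between the days it gave -0.74 to 1.09 for CXCL12. CXCL12 in that test was also at -0.013 with no label term, -0.021 with a random block, -0.042 without the gene-labelled day 14 non-pregnant arrays and -0.32 with genome-labelled arrays alone. Between the days in pregnant ewes, genome-labelled arrays alone gave -0.063 for CXCL8 and 0.066 for IL1B. With no label term CCL5 between the days in non-pregnant ewes was 0.055 and IL1RN on day 12 was 0.0085. With a random block these were 0.063 and 0.018, and IL6 on day 12 was -0.026.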

Other observations

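CXCR4, the receptor of CXCL12, was picked out after its values were seen. It was at 5.96, 6.04 and 6.17 in day 14 pregnant ewes, against 5.87, 7.59 and 8.36 in day 14 non-pregnant ewes. On day 12 it was at 5.75, 5.88 and 6.05 in pregnant ewes, against 5.91, 6.74 and 6.11 in non-pregnant ewes. The 2 highest values were those of both gene-labelled day 14 non-pregnant arrays, the groups overlapped, and the difference did not pass (-0.94 ± 0.39, limma adjusted p = 0.275).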
